A study of Canis lupus familiaris with 25 samples.

Results

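The mitosis and spindle genes described here are 39 listed genes whose products drive entry into mitosis, build the spindle, hold and separate the chromosomes or complete cell division. They were measured in carcinoma and mammary gland of dogs. A gene was followed through the array features (probe sets) that name it and no other gene, which 33 of the 39 genes had, among 15115 genes named in this way on the array. The 33 genes had 66 probe sets, and 31 of them had a signal high enough to be tested between the tissues.

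The 25 Affymetrix canine arrays, 1 per specimen, came from 14 pet dogs: 13 held a primary simple mammary carcinoma and 12 held non-neoplastic mammary gland. All 13 carcinomas had spread to a lymph node when they were removed, to an inguinal node in 12 dogs and an axillary node in 1. They were labelled negative for oestrogen receptor alpha in all 13 dogs and positive for HER-2 in 11 of 13. The dogs were 9 to 16 years old and carried 12 breed labels, the carcinomas measured 0.5 to 5 cm, and survival after surgery, known for 12 of these dogs, was 1 to 9 months. The glands came from tumour-bearing dogs and are no healthy reference. Both tissues were present for 11 dogs (dogs 2 to 7 and 10 to 14), while dogs 1 and 9 gave a tumour alone and dog 8 a gland alone.

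As background, a cell enters mitosis when cyclin-dependent kinase 1 is switched on by its cyclins, with the Polo and Aurora kinases acting beside it. Microtubules then attach to kinetochores on the centromeres, a checkpoint holds the cell until all are attached, and the anaphase-promoting complex destroys the cyclins and securin so that the chromatids part and the cell divides. Most of these genes are transcribed mainly in the late part of the cell cycle, under FOXM1, B-MYB and the DREAM complex, so their transcripts are widely read as a measure of how many cells in a tissue are cycling.

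Nearly the whole set was higher in the carcinomas than in the glands of the same dogs. Of the 31 genes tested, 30 were called higher in tumour and 0 lower, by limma with the dog as a block at a Benjamini-Hochberg adjusted p under 0.05. Over all 8885 genes tested, 18.4% were called higher and 11.1% lower. CDCA8, CENPA and KIF4A read below log2 4 in all 11 paired glands and passed the filter on low values (6 or more of 22 paired arrays above log2 4) only through their tumours, so their calls carry no weight. Of the other 28 genes 27 were called higher, against 18.0% of the 8833 genes of the array with a gland at or above log2 4. The median paired difference (tumour minus gland of the same dog, on the log2 scale) was 3.08 over the 31 genes and 0.10 over all genes. A rise of at least 2 was called for 27 of the 31 genes, CDCA8, CENPA and KIF4A included, against 1.5% of all genes. Of the 100 largest rises on the array 24 belonged to the 31 genes, CENPA and CDCA8 included. The exception was ANLN, whose tested probe set differed by 0.01. Arrays measure bulk RNA, so that fewer cells of a type and less RNA per cell cannot be told apart.

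By EPCAM the arrays of both tissues carried epithelial signal, while other luminal markers were less even. EPCAM, an epithelial adhesion molecule, read 12.55 to 14.46 in the tumours and 13.50 to 14.43 in the glands. KRT8, KRT18 and CDH1 were not called either, but read 10.31, 6.34 and 5.25 in the tumour of dog 6. Their lowest glands read 12.02, 12.12 and 6.64. GATA3 and FOXA1 were called lower in tumour, by 3.49 and 2.25. Markers of several other cells were called lower in tumour, beside 11.1% of all genes. The basal and myoepithelial markers were called lower for 4 of 4 genes tested, and skeletal muscle markers for 7 of 9. Adipocyte markers were called lower for 3 of 4, endothelial markers for 6 of 6, and fibroblast and luminal markers for 2 of 6 each. Among these, MYL1, MYL2, TNNC2, MYH7, MYBPC1 and ACTN2 of muscle and TEK of endothelium read below log2 4 in all 11 paired tumours. They passed the filter through their glands alone, so their calls carry no weight. None of the 5 T cell, 3 B and plasma cell or 5 macrophage markers tested was called in either direction. The mean of the basal list ran from 5.39 to 10.58 in the tumours and from 11.29 to 12.77 in the glands, without overlap. The mean of the luminal list ran from 7.89 to 11.07 in the tumours and from 9.59 to 12.05 in the glands. That of the muscle list ran from 3.10 to 4.82 in the tumours and from 4.30 to 12.16 in the glands. Adipocyte means ran from 7.34 to 11.53 in the tumours and 7.09 to 12.87 in the glands, and endothelial means from 5.54 to 8.11 and 5.93 to 9.76. Fibroblast means ran from 10.78 to 14.19 in the tumours and 12.15 to 14.50 in the glands. The part of these cells in the rise of the mitosis genes was not tested, apart from muscle.

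Muscle markers averaged 9.77 to 12.16 in 6 glands (dogs 7 and 10 to 14) and 4.30 to 4.83 in the other 6. The mean difference of the 31 genes was 2.74 ± 1.60 (SD, 6 dogs) where the gland held muscle signal and 3.01 ± 1.63 (SD, 5 dogs) where it did not. In those 5 dogs alone the median difference of the 31 genes was 3.29 and 9 of 31 were called, against 1.22% of all genes called higher with so few dogs.

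**Figure D1:**
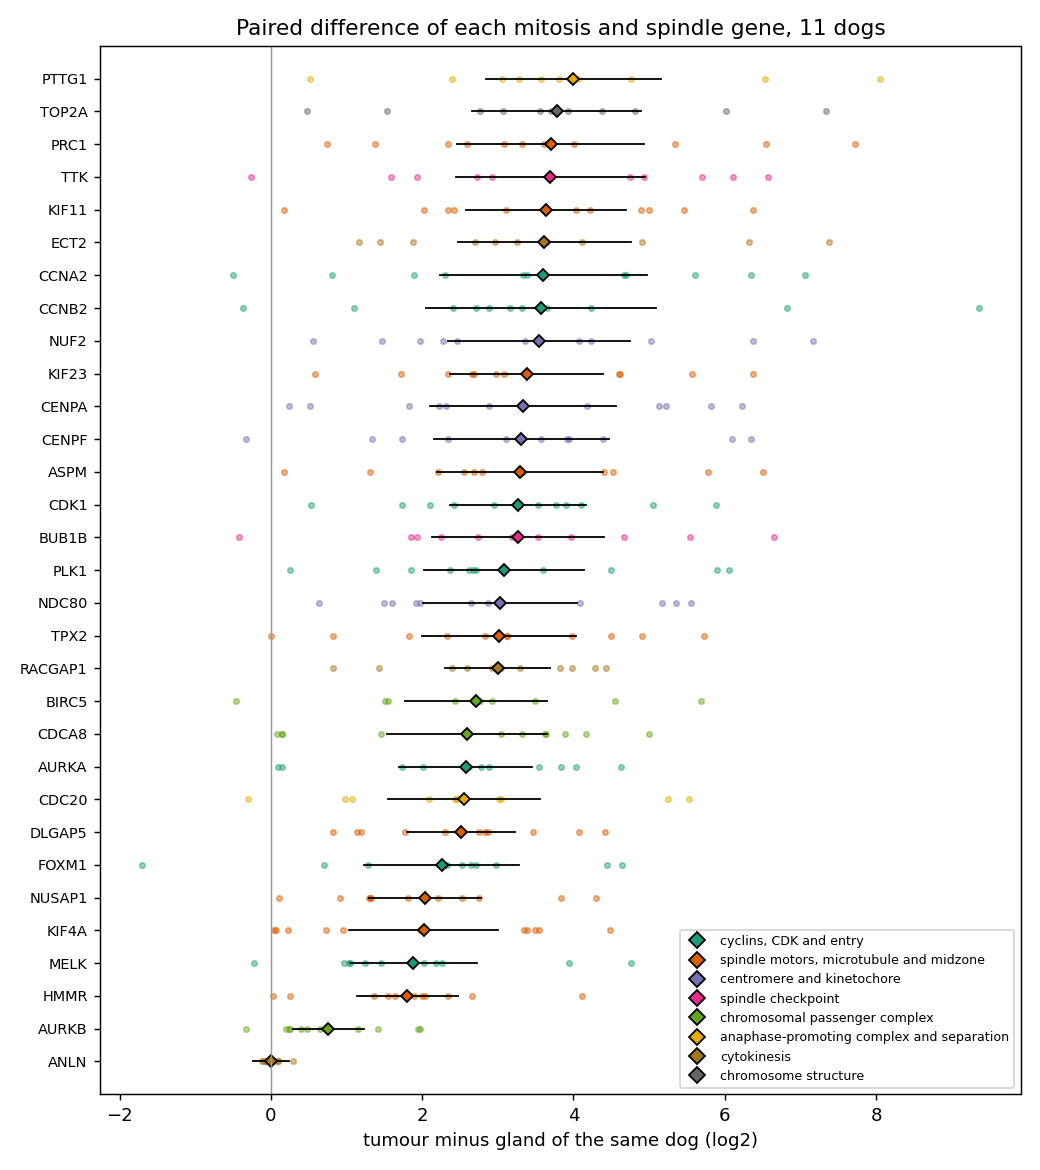
Paired difference of each of the 31 tested genes, tumour minus gland of the same dog, on the log2 scale, with small points for the 11 dogs, diamonds for the mean and lines for limma's 95% interval, coloured by role. The means run from 0.01 (ANLN) to 4.00 (PTTG1), and the intervals of 25 genes overlap that of PTTG1.

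The cyclins, kinases and the transcription factor of mitotic entry were called higher for 7 of 7 genes tested, with a median difference of 3.08. CDK1, the kinase that starts mitosis, read 7.98, 9.78 and 11.93 in the tumours (lowest, median and highest of 13) and 4.86, 6.01 and 8.88 in the glands (of 12). Its tumour values lay above every gland in 12 of 13 tumours, the exception being dog 5, and 3 glands exceeded that lowest tumour. CDK1 was higher in the tumour of all 11 dogs, by 3.27 ± 1.53 (SD over 11 dogs; SE 0.42, limma adjusted p = 0.000329), the smallest adjusted p of its role. Its 3 probe sets gave 2.92 to 3.27.

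Its cyclin partners moved by similar amounts with a wider spread. CCNA2, the cyclin of S and G2 phase, differed by 3.60 ± 2.35 (SD), and CCNB2, a B-type cyclin, by 3.57 ± 2.62. Both were higher in 10 of 11 dogs, and CCNB2 ranged from -0.36 in dog 14 to 9.36 in dog 6, the widest range over dogs of these genes. PLK1, the Polo kinase of mitotic entry and spindle assembly, was higher in all 11 dogs by 3.08 ± 1.80. AURKA, the Aurora kinase of the centrosomes, was higher in all 11 dogs by 2.57 ± 1.49, and its second probe set by 3.51 in 10 of 11 dogs.

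FOXM1, the transcription factor that drives many genes of this set, differed by 2.26 ± 1.75 (limma adjusted p = 0.00456). It read 4.93 to 8.74 in the tumours and 2.90 to 6.63 in the glands, with 8 of 13 tumours above every gland. Dog 14 went against the other 10 dogs with a difference of -1.70. A second FOXM1 probe set, above log2 4 in 7 of 22 paired arrays, differed by 0.64 and was not called (limma adjusted p = 0.0945). MELK, a kinase of dividing and progenitor cells, differed by 1.88 ± 1.42 and was higher in 10 of 11 dogs, and its other tested probe set differed by 2.35.

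The spindle motors and microtubule-binding proteins were called higher for 8 of 8 genes with a gland above log2 4, with a median of 3.16, and for KIF4A, which passed the filter through its tumours alone. PRC1, which bundles the antiparallel microtubules of the midzone, had the third largest difference of the set by its brightest probe set. It read 5.11, 7.17 and 10.02 in the tumours and 2.20, 3.05 and 5.67 in the glands, and 11 of 13 tumours lay above every gland. PRC1 was higher in the tumour of all 11 dogs, by 3.70 ± 2.12 (SD; SE 0.57, limma adjusted p = 0.000868), with 7 of 11 paired glands below log2 4. Its other tested probe set gave 2.15, and the mean of both 2.92. The lowest values of the array bunch together near log2 2, and a difference against such glands is uncertain in size. This limit also covers TTK, ASPM, BUB1B, CENPF and CCNA2, with 6 to 8 of 11 paired glands below log2 4.

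KIF11, the motor that pushes the spindle poles apart, was higher in all 11 dogs by 3.64 ± 1.81. KIF23, a motor of the midzone that works with RACGAP1, was higher in all 11 by 3.38 ± 1.72. ASPM, a protein of the spindle poles, was higher in all 11 by 3.29 ± 1.88, and TPX2, which activates AURKA on spindle microtubules, by 3.02 ± 1.73. These 4 genes shared their smallest difference in dog 14, at 0.58 for KIF23, 0.18 for KIF11, 0.17 for ASPM and under 0.01 for TPX2.

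DLGAP5, which stabilises kinetochore fibres, had the smallest adjusted p among the spindle genes. Its tumours read 6.95, 8.80 and 10.85 and its glands 4.64, 6.20 and 7.58, and 12 of 13 tumours lay above every gland. The difference was 2.51 ± 1.20 (SD; SE 0.33, limma adjusted p = 0.000382) and positive in all 11 dogs. Another of its probe sets, dimmer in the glands, gave 4.16.

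The other spindle genes had differences near 2. NUSAP1, which bundles spindle microtubules, differed by 2.04 ± 1.25, and its 3 tested probe sets by 2.04 to 2.60. KIF4A, a motor bound to chromosomes, differed by 2.02 ± 1.67 with all 11 paired glands and 4 of 11 paired tumours below log2 4. In the 13 tumours KIF4A ran from 3.29 to 7.38 with a median of 4.15. HMMR, a hyaluronan receptor that also acts at the spindle, read 4.76, 6.31 and 8.85 in the tumours and 4.24, 4.80 and 5.79 in the glands. Its 11 dogs all gave a higher tumour value, by 1.81 ± 1.11 (SD; SE 0.31, limma adjusted p = 0.00164), the third smallest difference of the set.

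The centromere and kinetochore genes NDC80, NUF2 and CENPF were called higher, each by over 3, and so was CENPA, which passed the filter through its tumours alone. NDC80 and NUF2 are partners in the complex that grips the microtubule end. NDC80 read 7.00, 8.52 and 10.42 in the tumours and 3.17, 5.31 and 7.28 in the glands, with 11 of 13 tumours above every gland. The difference was 3.03 ± 1.73 (SD; SE 0.47, limma adjusted p = 0.000894) and positive in all 11 dogs, and its 3 probe sets gave 2.69 to 3.03. NUF2 was higher in all 11 dogs by 3.54 ± 2.07. CENPF, a large protein of the outer kinetochore, differed by 3.31 ± 1.99 and was higher in 10 of 11 dogs.

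CENPA, the histone H3 variant that marks the centromere, stood at the low end of the scale in the glands and spread widely in the tumours. Its glands read 2.46 to 3.49 and its tumours 2.76 to 8.80, and 11 of 13 tumours lay above every gland. It differed by 3.33 ± 2.11, positive in all 11 dogs, with 11 of 11 paired glands and 2 of 11 paired tumours below log2 4.

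The spindle checkpoint was represented by TTK and BUB1B, both called higher. TTK, the kinase that recruits the checkpoint proteins to kinetochores, read 3.86, 7.55 and 8.81 in the tumours and 1.95, 2.28 and 6.03 in the glands. The tumours of 8 dogs lay above every gland, and the highest gland was that of dog 14. Of the 11 paired glands, 8 read below log2 4 for TTK. It was higher in 10 of 11 dogs, by 3.69 ± 2.13 (SD; SE 0.58, limma adjusted p = 0.000904). BUB1B, the pseudokinase BUBR1 that restrains CDC20, was higher in the same number of dogs by 3.26 ± 1.95.

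The chromosomal passenger complex, an Aurora B kinase module that corrects faulty attachments, was called higher for BIRC5 and, by much less, for AURKB, and for CDCA8, which passed the filter through its tumours alone. BIRC5, or survivin, read 7.93, 10.09 and 11.94 in the tumours and 5.64, 6.92 and 9.33 in the glands, with 8 of 13 tumours above every gland. Its difference was 2.71 ± 1.61 (SD; SE 0.43, limma adjusted p = 0.00109), positive in 10 of 11 dogs. AURKB, the kinase of the complex, read 7.92, 9.47 and 10.92 in the tumours and 7.82, 8.53 and 9.24 in the glands.

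Of the 30 called genes AURKB had the most glands above its lowest tumour, 10 of 12. Its difference was 0.76 ± 0.75 (SD; SE 0.22, limma adjusted p = 0.0208), the smallest called, and positive in 10 of 11 dogs with dog 5 the exception. A second AURKB probe set gave 0.92, positive in all 11. Without the dog as a block AURKB lost its call (limma adjusted p = 0.0549). CDCA8, or borealin, was near the floor in every gland, at 2.16 to 2.34, and spread from 2.33 to 7.26 in the tumours. It was higher in all 11 dogs by 2.59 ± 1.80, with differences of under 0.2 in dogs 5, 13 and 14.

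Of the probe sets that stand for each gene, the largest rise was found among the genes of chromatid separation. PTTG1, or securin, which holds the separase enzyme inactive until anaphase, read 6.98, 9.64 and 11.53 in the tumours and 3.46, 5.45 and 8.35 in the glands. Of the 13 tumours 10 lay above every gland, and 4 of 12 glands exceeded the lowest tumour. PTTG1 was higher in all 11 dogs by 4.00 ± 1.99 (SD; SE 0.54, limma adjusted p = 0.00043), from 0.52 in dog 14 to 8.05 in dog 6. It had the 4th largest rise of all 8885 genes. CDC20, the activator through which the anaphase-promoting complex finds securin and the cyclins, differed by 2.55 ± 1.72 and was higher in 10 of 11 dogs.

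The cytokinesis genes held the smallest adjusted p of the set and the only tested gene that was not called. RACGAP1, the GTPase-activating partner of KIF23 in the midzone, read 5.47, 7.90 and 8.77 in the tumours and 2.19, 4.25 and 5.73 in the glands, and 12 of 13 tumours lay above every gland. It was higher in all 11 dogs by 3.00 ± 1.15 (SD; SE 0.32, limma adjusted p = 0.000142), the smallest SD among differences of at least 3. ECT2, the exchange factor that RACGAP1 recruits to switch on RhoA at the division plane, was higher in all 11 dogs by 3.61 ± 1.96, and by no less than 1.16 in any dog.

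ANLN, or anillin, the scaffold of the contractile ring, depended on the probe set read. The tested probe set ran from 5.25 to 5.52 in the tumours and from 5.03 to 5.43 in the glands. Its difference was 0.01 (95% interval -0.23 to 0.24, limma adjusted p = 0.976), positive in 4 of 11 dogs, and its sign turned when arrays were centred on their medians (-0.06) or normalized again by quantiles (-0.03). The other ANLN probe set, above log2 4 in 4 of 22 paired arrays and not tested, ran from 2.36 to 6.14 in the tumours with a median of 3.10. It ran from 2.29 to 2.47 in the glands, so that 9 of 13 tumours lay above every gland, and it was higher in all 11 dogs by 1.41 ± 1.50. Which of them follows the transcript was not tested.

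TOP2A, the topoisomerase that untangles sister chromatids and the target of anthracyclines, had the second largest difference. It read 8.24, 10.90 and 12.07 in the tumours and 4.54, 6.96 and 9.37 in the glands, and 11 of 13 tumours lay above every gland. It was higher in all 11 dogs by 3.78 ± 1.92 (SD; SE 0.52, limma adjusted p = 0.000466). A second TOP2A probe set gave 4.33 in 10 of 11 dogs.

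The genes left out of the test lay near the floor or had no probe set of their own. KIF2C, a kinesin that takes microtubules apart at centromeres, had 4 probe sets, none above log2 4 in enough paired arrays. The brightest reached 5.04 in the tumours (median 2.73) against 2.20 to 2.54 in the glands, and was higher in all 11 dogs by 1.28 ± 1.15, with no test. UBE2C, the ubiquitin-conjugating enzyme of the anaphase-promoting complex, had 3 probe sets, which ran from 1.99 to 3.73 in the tumours and from 2.04 to 3.18 in the glands, and no paired array exceeded log2 4. CCNB1, BUB1, KIF20A, CENPE, MAD2L1 and CKS2 were named alone by no probe set in the annotation and were not analysed here. Of the 66 probe sets, 49 were tested and 47 of these were called higher, all but 1 each of ANLN and FOXM1. Of the other 17, 11 never exceeded log2 4 in the paired arrays. Over the whole array 6128 of the 21552 probe sets tested were called, a count not split by direction. The 47 include the tested probe sets of CDCA8, CENPA and KIF4A, which passed the filter through their tumours alone.

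The order of the differences is a description, since genes were not tested against each other. PTTG1, TOP2A, PRC1, TTK, KIF11, ECT2, CCNA2, CCNB2 and NUF2 led, in that order, at 4.00 to 3.54, and MELK, HMMR, AURKB and ANLN closed it at 1.88 to 0.01. It depends on the probe set that stands for a gene: with the mean of a gene's tested probe sets TOP2A led at 4.05 and PRC1 stood at 2.92, and the dimmer probe sets of TOP2A and DLGAP5 gave 4.33 and 4.16. Of 30 pairs of neighbours in the order, 29 had overlapping 95% intervals. The intervals of 25 of the other 30 genes overlapped that of PTTG1. The 5 whose intervals did not reach it were NUSAP1, MELK, HMMR, AURKB and ANLN.

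The tissues overlapped for every gene, and the overlap came from the same few dogs. No gene had all 13 tumours above all 12 glands, as 0.236% of all genes did. For 29 of the 31 genes no gland reached the tumour median, the others being MELK (2 glands) and ANLN (11 glands). The 29 include CDCA8, CENPA and KIF4A, which read below log2 4 in all 12 glands and carry no weight in this count. Among the 30 called genes, 6 to 12 of the 13 tumours lay above the highest gland. The same counts were not made over all genes, so they are given as description only. The lowest tumour was that of dog 5 for 23 of 31 genes, and the highest gland that of dog 14 for 19.

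The mean of the 31 genes in each array shows these dogs. It ran from 5.98 to 9.72 in the tumours (median 8.26, SD 1.11) and from 4.00 to 6.94 in the glands (median 4.77, SD 1.06). Among the tumours, dogs 5 and 13 were low at 5.98 and 6.40, and dogs 6, 10 and 7 high at 9.72, 9.13 and 9.13. Among the glands, those of dogs 14, 3, 7 and 2 were high at 6.94, 6.69, 6.49 and 5.98, and the other 8 lay between 4.00 and 5.18. These 4 glands exceeded the tumour of dog 5, the gland of dog 2 by under 0.01.

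**Figure D2:**
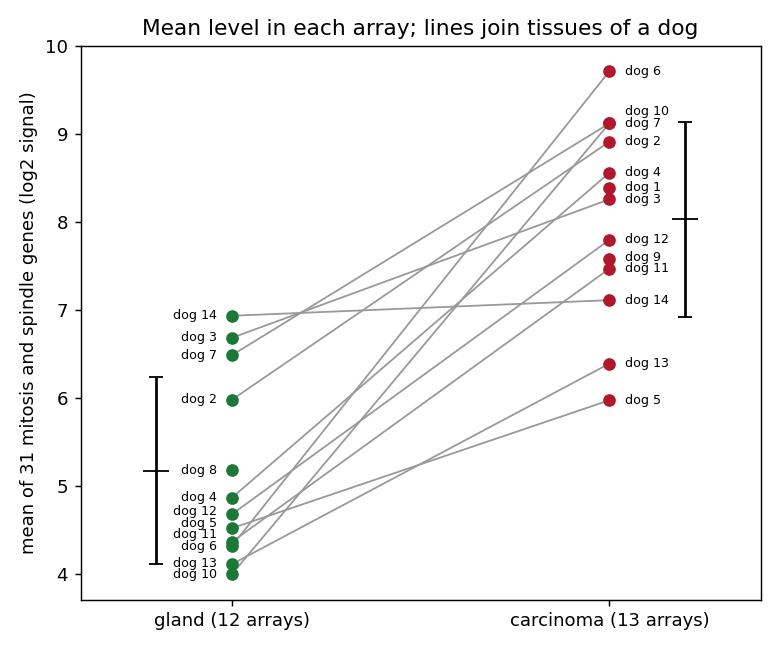
Mean log2 signal of the 31 tested genes in each array, glands at the left and carcinomas at the right, with lines joining both tissues of a dog and bars for the mean and SD of each tissue. Glands span 4.00 to 6.94 and tumours 5.98 to 9.72, and the line of dog 14 is nearly flat.

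The difference averaged over the 31 genes was positive in all 11 dogs, at 2.87 ± 1.54 (SD). It was largest in dog 6 at 5.40 and dog 10 at 5.13, and these dogs gave the largest difference of 18 and 11 genes. Dog 14 was the smallest at 0.18, and it gave the smallest difference of 26 genes. In its tumour 21 of 31 genes were higher and 10 lower, beside 58.3% of all genes higher. In each of the other 10 dogs 29 to 31 of the 31 genes were higher, beside 49.7% to 57.8% of all genes. As a result 20 genes were higher in all 11 dogs, against 5.71% of all genes, and without dog 14 the number was 29 in 10 dogs, against 7.87%. Both counts include CDCA8, CENPA and KIF4A, which passed the filter through their tumours alone and so carry no weight in them. The small difference of dog 14 came from a gland at 6.94, the highest of 12, and a tumour at 7.12, the third lowest of 13. By contrast, the small difference of dog 5, 1.46, came from its low tumour, since its gland read 4.52.

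**Figure D3:**
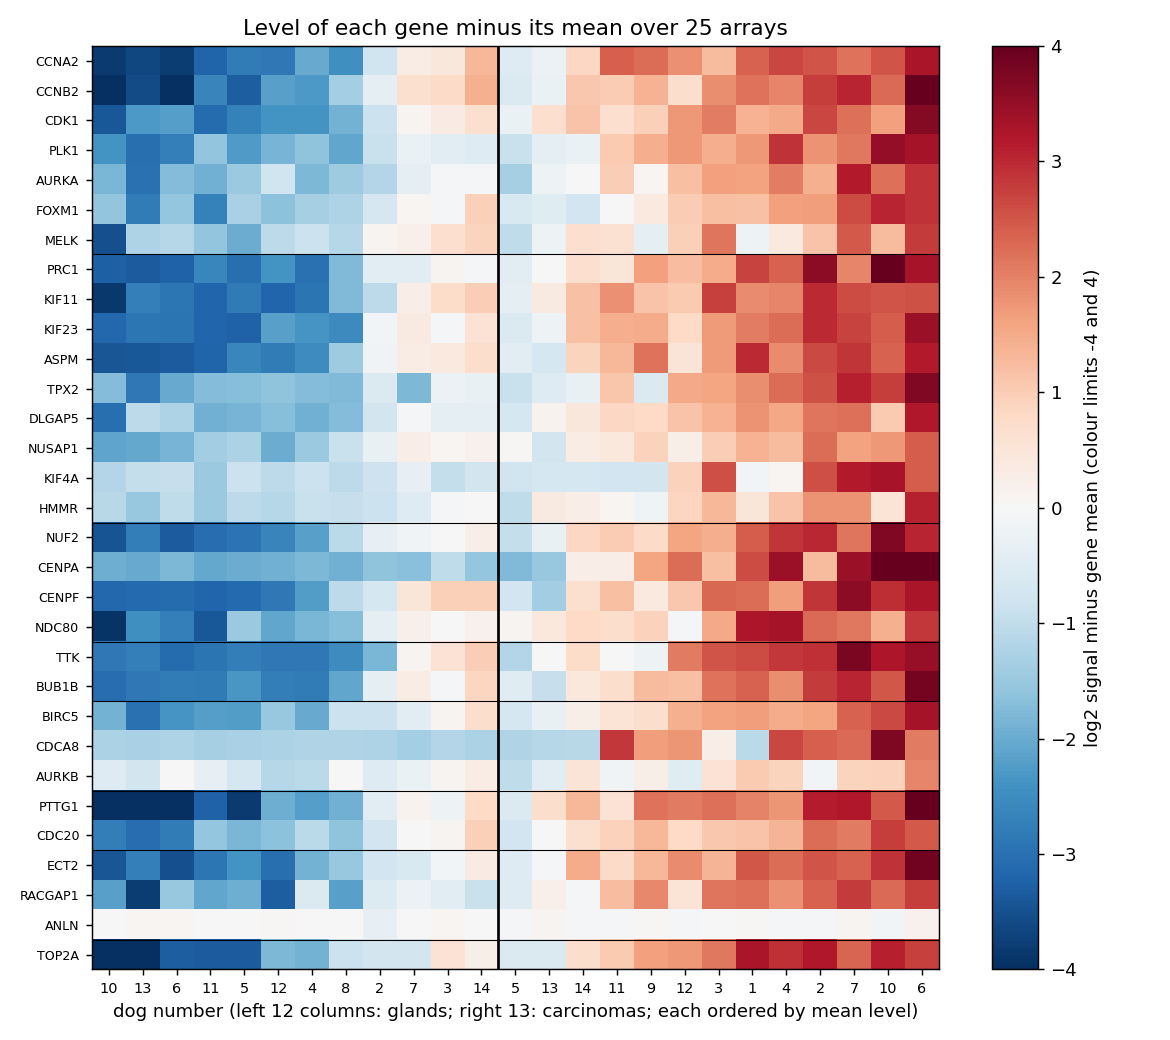
Level of each of the 31 genes in each array minus the gene's mean over the 25 arrays, on the log2 scale with colours limited to -4 and 4, genes grouped by role and arrays ordered by their mean within gland (left 12) and carcinoma (right 13). Most rows follow the order of the columns, the glands of dogs 2, 7, 3 and 14 are paler than the other 8, and ANLN is flat.

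The glands varied as much as the tumours in these genes, unlike most genes of the array. The SD was larger in the tumours for 14 of 31 genes, while it was larger in the tumours for 77.1% of all genes. The median SD of the 31 genes was 1.21 over the 13 tumours and 1.24 over the 12 glands, against 0.63 and 0.46 over all genes. The count was 17 with the mean of a gene's probe sets, 19 with the range in place of the SD and 15 in the 11 dogs with both tissues. CCNB2, CCNA2 and PTTG1 varied most over the glands, with SDs of 2.08, 1.81 and 1.81 against 1.40, 1.14 and 1.21 over the tumours. CENPA, CDCA8 and KIF4A varied most over the tumours, with SDs of 1.96, 1.78 and 1.68. Their glands, with SDs of 0.29, 0.05 and 0.27, all lay below log2 4.

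The genes moved together from array to array within each tissue. The median Pearson r between pairs of the 31 genes was 0.82 over the 13 tumours, 0.83 over the 12 glands and 0.84 over the 11 paired differences. The r of a gene with the mean of the others was above 0.7 for 29 of 31 genes in the tumours, 27 in the glands and 29 in the differences. Among the 8854 other genes, 2.77%, 4.46% and 4.73% had such an r with that mean. These are descriptions: values of an array share its RNA quality, its normalization and its mixture of cells.

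Some genes followed the others less. ANLN had r of 0.19 with the mean of the others in the tumours and -0.20 in the glands. CDCA8 had r of 0.64 in the tumours and 0.13 in the glands, where it spans 2.16 to 2.34. AURKB and KIF4A had r of 0.53 and 0.59 in the glands, against 0.80 and 0.78 in the tumours. NDC80 and MELK had 0.73 and 0.76 in the tumours, against 0.93 and 0.88 in the glands. The tightest were BUB1B, BIRC5 and KIF23 in the tumours, at 0.97, 0.97 and 0.96, and ASPM and CCNA2 in the glands, at 0.99 each. Between the tissues the dogs were less alike: the r of tumour with gland over 11 dogs was positive for 26 of 31 genes with a median of 0.17, beside 75.9% of all genes with a median of 0.25.

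**Figure D4:**
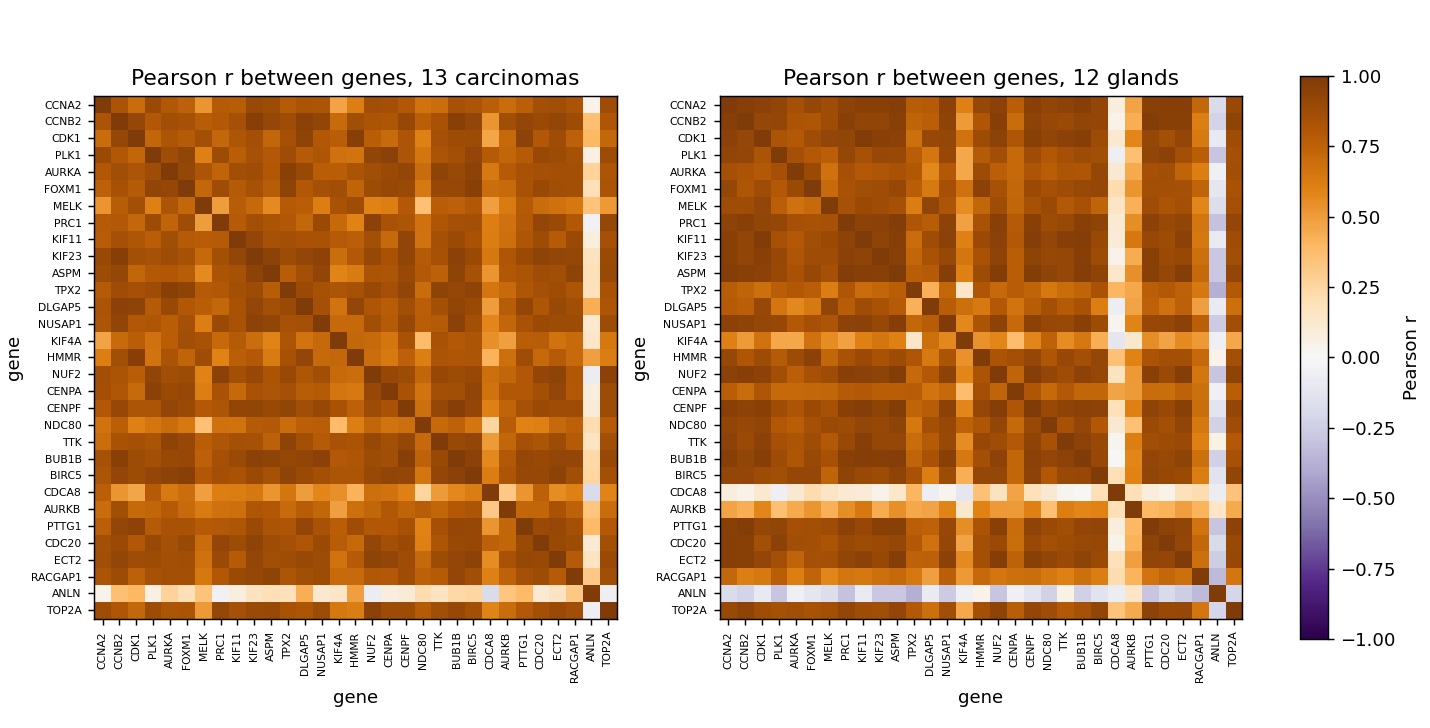
Pearson r between each pair of the 31 genes over the 13 carcinomas (left) and the 12 glands (right), genes in the order of their roles, colour scale from -1 to 1. The median r is 0.82 and 0.83, and the pale rows are ANLN in both tissues and CDCA8, AURKB and KIF4A in the glands.

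Known partners were tested as pairs. Of 18 pairs listed, 13 had both genes tested, which gave 26 correlations over both tissues, with permutation p-values adjusted over the 26. In the tumours 12 of 13 pairs had an adjusted p under 0.05 by Pearson r and 10 by Spearman rho, and in the glands 10 and 6. The median r of the 13 partner pairs, 0.788 in the tumours and 0.796 in the glands, was no higher than the 0.815 and 0.826 over all pairs of the 31 genes, so these counts show nothing particular to partners. The tightest pair in the tumours was AURKA with its activator TPX2 (r = 0.955, rho = 0.940, permutation p = 1e-05 for each, the smallest possible, adjusted p = 8.67e-05 for r and 0.000173 for rho, n = 13). Without the 2 arrays farthest from the median of AURKA this r was 0.971. RACGAP1 with KIF23, the centralspindlin pair, had r of 0.909 in the tumours, and CCNB2 with CDK1 had 0.913.

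The weakest pair in the tumours was AURKB with CDCA8, partners in the passenger complex (r = 0.317, permutation p = 0.292, adjusted p = 0.316; rho = 0.357, permutation p = 0.23, adjusted p = 0.26). It was also the weakest in the glands by r, though not by rho (r = 0.192, permutation p = 0.548, adjusted p = 0.548; rho = 0.322, permutation p = 0.306, adjusted p = 0.318), where CDCA8 has almost no range. By r, the tightest pair in the glands was CCNA2 with CDK1 (r = 0.949, permutation p = 4e-05, adjusted p = 0.000182; rho = 0.776, permutation p = 0.00404, adjusted p = 0.00899). By rho it was NDC80 with NUF2 (rho = 0.902, permutation p = 0.00017, adjusted p = 0.000884). In the tumours CCNA2 with CDK1 had r of 0.698. This r fell to 0.437 without the 2 arrays farthest from the median of CCNA2 and so rests on those arrays. Over the 13 pairs, r without the 2 farthest arrays was above 0.5 for 11 in each tissue. Among the 11 in the glands is PRC1 with KIF4A, whose r was 0.479 with all arrays and 0.532 without the 2.

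Genes outside the list with the most similar pattern were FBXO5, NCAPG, SPC25, SGO1, ASF1B, CENPK, CDCA2 and MTFR2, with r of 0.973 to 0.952 with the mean of the 31 genes over the 13 tumours. FBXO5, or EMI1, restrains the anaphase-promoting complex before mitosis. NCAPG is a condensin subunit and SPC25 a subunit of the NDC80 complex. SGO1, or shugoshin, guards the cohesin at centromeres, ASF1B is a histone chaperone and CENPK a constitutive centromere protein. The 8 genes had r of 0.560 (CDCA2) to 0.975 (NCAPG) over the glands. Their paired differences ran from 2.61 (CENPK) to 3.92 (NCAPG), all called by limma with adjusted p from 0.00065 to 0.0022. CDCA2 read 2.74 to 3.99 in the glands, below log2 4 in all 12. It was tested through its tumours alone, so its call carries no weight. SGO1 and CENPK read below log2 4 in 11 and 10 of the 12 glands, so the size of their differences is uncertain.

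The rest of the mitotic machinery was read from 5 further lists, with the same 18.4% of all genes called higher as background. Of the other kinetochore and centromere genes 27 of 32 tested rose and 1 fell, with a median difference of 1.55. CENPH, a constitutive centromere protein, rose by 3.46 ± 1.95, and MIS18A, which helps load CENPA, by 3.31 ± 1.56. CENPN, which reads the CENPA nucleosome, fell by 0.43 ± 0.43 and was lower in 9 of 11 dogs. Its tumours ran from 8.23 to 9.77 and its glands from 9.07 to 9.79, so that all 12 glands lay above the lowest tumour.

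Of the other spindle and cytokinesis genes 20 of 25 rose and 1 fell, with a median of 1.67. The 20 include DEPDC1B, GTSE1, SPAG5 and STIL, which read below log2 4 in all 11 paired glands and were tested through their tumours alone. DEPDC1, a gene of dividing cells, rose by 3.63 ± 2.23, with 10 of 11 paired glands below log2 4. KIFC1, the minus-end motor that gathers extra centrosomes, rose by 3.52 ± 1.80. NUMA1, which tethers microtubules at the spindle poles and is also a nuclear matrix protein between divisions, fell by 0.54 ± 0.40 and was lower in 10 of 11 dogs.

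Of the entry kinases and phosphatases 5 of 8 rose and 0 fell, with a median of 1.34. MASTL, among the 5, read below log2 4 in every paired gland. The list was led by PLK4, the kinase that duplicates centrioles, at 3.08 ± 1.47, and FBXO5 at 3.01 ± 1.83. The core of the anaphase-promoting complex with separase moved less: 8 of 17 rose, 1 fell and the median was 0.36. ESPL1, the separase that PTTG1 inhibits, differed by 2.66 ± 1.85, with all 11 paired glands below log2 4, so that it was tested through its tumours alone and the size is uncertain. UBE2S, which extends ubiquitin chains on substrates of the complex, rose by 2.37 ± 1.40. ANAPC2, the cullin subunit of the complex, fell by 0.52 ± 0.60 (limma adjusted p = 0.0485). Of the DREAM and quiescence genes 7 of 15 rose and 0 fell, with a median of 0.56, and RBL1, among the 7, read below log2 4 in every paired gland.

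The DREAM and quiescence list holds repressors and activators alike. Its largest rises were MYBL2, the B-MYB activator of mitotic genes, at 2.49 ± 1.75, and CDKN1A, the CDK inhibitor p21, at 1.91 ± 1.34 with a higher value in all 11 tumours. CDKN1A read 8.17 to 13.20 in the tumours and 6.51 to 10.33 in the glands. The common proliferation marker MKI67 had no probe set of its own in the annotation and was not analysed here.

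Among the tumours the slopes of these genes against labelled size were nearly all negative, and none passed the test. The slope against labelled size over the 13 tumours was negative for 31 of 32 genes tested, KIF2C included, with a median of -0.62 per cm on the log2 scale. No gene of the array was called (0% of 8817 by limma; 852 had an unadjusted p under 0.05), and the smallest adjusted p of these genes was 0.367. An unadjusted p under 0.05 with a negative slope was reached by 27 of the 32 genes, against 6% of all genes, but the 32 genes move together and are not separate observations. CDC20 had a slope of -0.58 ± 0.14 (SE; limma unadjusted p = 0.000859) and AURKA of -0.74 ± 0.18 (SE; limma unadjusted p = 0.00118), both with adjusted p = 0.367. The steepest slope was that of CENPA at -1.08 ± 0.28 (SE).

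The size values rest on few tumours. The mean of the 31 genes was 5.98 and 6.40 in the 2 carcinomas of at least 4 cm (dogs 5 and 13), 7.12 to 8.92 in the 7 of 2 to 3 cm and 7.47 to 9.72 in the 4 of at most 1 cm. Without dog 5 the median slope was -0.50, and 14 genes had an unadjusted p under 0.05. Over all 13 such omissions it ran from -0.50 to -0.72, with 31 or 32 genes negative. Beside 47.2% of all genes with a positive slope, the basal and myoepithelial markers had positive slopes for 4 of 4 genes (median 0.38 per cm), luminal markers for 4 of 5, endothelial markers for 4 of 5, fibroblast markers for 5 of 6, macrophage markers for 3 of 5 and muscle markers for 2 of 3. Slopes were negative for 4 of 5 T cell markers (median -0.29), 3 of 4 adipocyte markers and 2 of 3 B and plasma cell markers. The r of the luminal list with the mean of the 31 genes was -0.71 over the 13 tumours and -0.61 over the 12 glands. Their part in the size slopes was not tested.

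**Figure D5:**
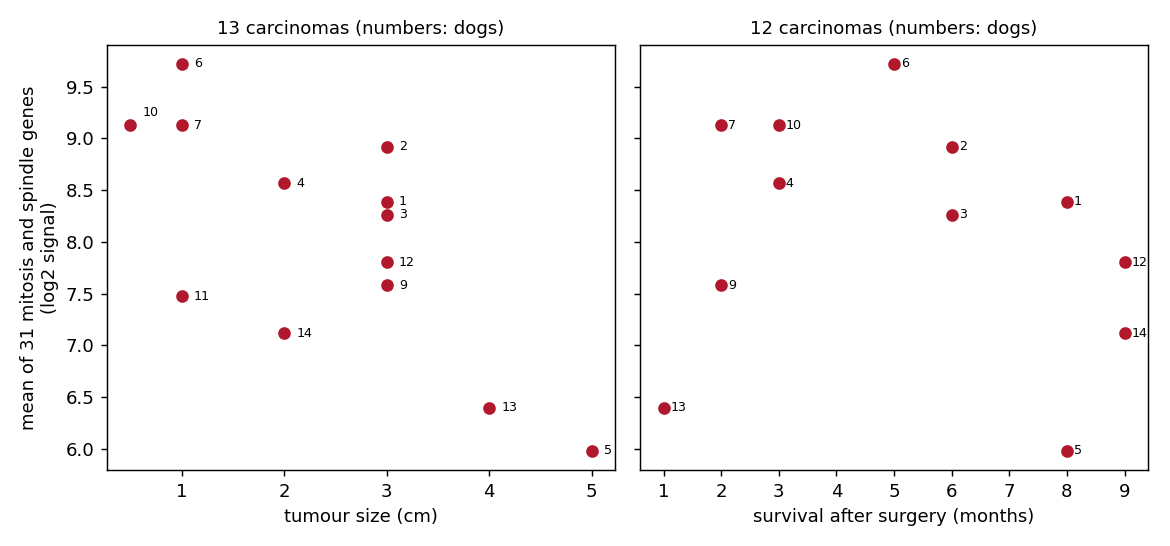
Mean log2 signal of the 31 genes in each carcinoma against labelled tumour size in cm (left, 13 tumours) and months of survival after surgery (right, 12 tumours), points numbered by dog. The 2 tumours of 4 and 5 cm are the lowest at 6.40 and 5.98, and no trend with survival passed a test.

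Survival showed no slope that passed. Over 12 tumours 31 of 32 genes had a negative slope, with a median of -0.07 per month, but 0 were called by limma and 0 had an unadjusted p under 0.05. Over all genes 0% of 8751 were called, and 222 had an unadjusted p under 0.05. The smallest p were those of CDCA8 at -0.25 ± 0.16 per month (SE; limma unadjusted p = 0.135) and RACGAP1 at -0.16 ± 0.11 (SE; limma unadjusted p = 0.164). Without dog 5, a low tumour with 8 months of survival, 16 of 32 slopes were negative with a median of 0.0001. Without dog 13, a low tumour with 1 month, the median was -0.20, and 6 genes had an unadjusted p under 0.05.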

How the data were processed

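Per the labels' protocols, biotin-labelled cRNA was made from total RNA of specimens macrodissected for tumour or gland epithelium, and read on Affymetrix canine arrays. The authors deposited 1 normalized log2 value per probe set and array. The submitters' processing notes name Partek, GCRMA and RMA, without versions or roles, and normalization of this kind fixes where low values crowd. The file holds 43035 probe sets, with values from 0.86 to 16.66 and array medians from 3.56 to 3.77, and no pair of arrays was identical. Depth does not apply to arrays, and the number of dogs limits the precision.

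The 175 control probe sets were left out. Gene names came from the platform annotation (29264 probe sets with 1 symbol, 439 with several, 13332 with none). Of the probe sets with 1 symbol, 27690 had an Entrez ID found in a RefSeq table of UU_Cfam_GSD_1.0, which changed 0 symbols. The 2 CENPF probe sets carry different Entrez IDs. The 21552 probe sets with 6 or more of the 22 paired arrays above log2 4 were tested with limma 3.58.1 in R 4.3.3 (eBayes with trend), 2-sided, with Benjamini-Hochberg adjustment over all probe sets. Where a gene had several tested probe sets, that with the highest mean of the 25 arrays stood for it. Slopes used probe sets above log2 4 in at least 4 tumours. Correlations used 100000 permutations. The fit was tested on simulated data.

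Pairing follows the dog numbers in the labels. With the tissue means subtracted, both tissues of a dog correlated at 0.12 to 0.46 in 11 of 11 dogs, and tissues of different dogs at a median of -0.06. The members and gene lists were chosen with earlier results of these data known. Genes were named by rule: the 3 largest and 3 smallest differences, genes not called, the smallest adjusted p of each role, the 2 largest called rises and falls of each list, the 8 outside genes most alike, the 2 smallest p of each slope, and the tightest and weakest pairs. Other members are named by role, and luminal markers for the epithelial signal.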

Additional observations from a re-analysis of the deposited data

How the results depend on the processing

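The count of mitosis genes called higher was 29 to 30 of 31 under the unpaired fit, centring, quantile normalization, other choices of probe set, eBayes without trend, all 25 arrays with the dog as a random block, the log2 ratio of 3' to 5' actin probe sets as covariate, and dogs with a tumour title ending in _b, a suffix the labels do not explain. It was 31 of 33 without a filter, 27 of 28 under the stricter filter, 30 without any 1 dog, and 9 in the 5 dogs whose gland lacked muscle signal, a setting with fewer dogs. The unpaired fit (no replicate block) called 29, losing AURKB. The median difference kept its sign throughout, from 2.87 without dog 10 to 3.60 with the actin covariate. ANLN turned to -0.0573 after centring and -0.0262 after quantile normalization, and ran from -0.0236 to 0.0179 with 1 dog left out. Over the single genes 682 of the values under an alternative kept their direction and side of the threshold, 23 lost their call, 21 of them in those 5 dogs, and 5 turned sign, all ANLN. The _b alternatives and the count without dog 14 were chosen after the data were seen. The actin ratio was 2.97 to 4.66 in tumours and 3.81 to 4.98 in glands. A planned search of promoters for motifs was not run, since no promoter sequences were used here. With 13 tumours the slopes are imprecise, and differences against levels below log2 4 are uncertain.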
